A study of Homo sapiens with 6 samples.

Results

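Weak readthrough regions are stretches past the 3′ end of an abundant gene that carry RNA at a small fraction of the level of that gene. They were selected on the ratio of 2 mean normalized counts: the mean of a downstream-of-gene (DoG) region over the mean of the host gene that gives the region its name. Of the 2014 DoG regions in the authors' deposited table, 1798 carry a name that is also a symbol in the gene table, and 466 of these have a ratio under 0.25. A further 582 regions, with a ratio from 0.25 to under 1, are called intermediate here, and 750 regions with a ratio of 1 or more are called strong. The remaining 216 regions have names that match no gene symbol. The ratio is a ranking of relative readthrough and no readthrough efficiency, because the 2 tables may have been scaled separately and region lengths are not used.

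The cells were MDA-MB-231, an established line from a human triple-negative breast cancer, grown in medium with serum. The study compared 3 control libraries with 3 libraries from cells in which a doxycycline-inducible short hairpin RNA against UBE3D, integrated by lentivirus, was used to lower that gene. Whether the control cells carried another hairpin or received doxycycline is not given in the sources used here. GEO's labels call each sample pooled and do not say whether libraries come from separate cultures, so p-values measure only how far these libraries spread, and that spread may be technical. Each library was made from total RNA depleted of ribosomal RNA, with random primers and stranded paired-end sequencing. UBE3D itself averaged 36.7 normalized counts, and its log2 fold change, knockdown over control, was -0.80 in the authors' deposited table (adjusted p = 0.00632, SE 0.37). CPSF3, the gene of the nuclease CPSF73 that the series title names, had -0.12 (SE 0.13, adjusted p = 0.464). Only the authors' comparison of the 2 groups was used, with 1 mean over all libraries per region, so values by library cannot be shown and the sequencing depth is unknown.

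A messenger RNA precursor is cut at its 3′ end by the cleavage and polyadenylation complex, in which CPSF73 is the nuclease. The complex recognises a poly(A) signal, most often the hexamer AATAAA or its common variant ATTAAA as written in DNA letters, shortly before the cut. RNA polymerase II continues past the cut before it is released, and incomplete cleavage leaves continuous RNA downstream of the gene, which DoG regions collect. UBE3D is an E3 ubiquitin ligase whose yeast counterpart, Ipa1, is needed for this cleavage. At strongly expressed genes, a small share of uncut transcripts is enough to leave a measurable region.

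The annotated ends of 9 hosts are shown as a description, and no call depends on them. The hosts include those of the largest rise and the largest fall, of regions that moved apart from their gene, and of the smallest ratio. Each sequence is the last 30 bases of the GENCODE 29 transcript that ends furthest downstream, 5′ to 3′ on the strand of the gene, on GRCh38. Capitals mark the poly(A) signal, AATAAA or otherwise ATTAAA, where these 30 bases hold either.
RPL14 (chr3:40468558-40468587, plus strand): ttcaAATAAAatttagaattagcttgtcaa
CENPT (chr16:67828157-67828186, minus strand): cccagcatcAATAAAgtgtcataaacagaa
NUCKS1 (chr1:205712819-205712848, minus strand): tAATAAAagataatgtttatactcacagaa
EIF2S3 (chrX:24077942-24077971, plus strand): ggtcaagaagtaaaagatgttagaaagcaa
HNRNPA2B1 (chr7:26173057-26173086, minus strand): agttgAATAAAagaatcaatgagtgcactc
CRIM1 (chr2:36551106-36551135, plus strand): gcaggaAATAAAcattttgagttgaaatca
SRSF1 (chr17:58003360-58003389, minus strand): gttagcaaATTAAAagttcttaaaaggcaa
GNA12 (chr7:2728112-2728141, minus strand): ttaaAATAAAtttagtctttctttgcttaa
ACTB (chr7:5527147-5527176, minus strand): ttgAATAAAagtgcacaccttaaaaatgag
AATAAA stands in the ends of RPL14, CENPT, NUCKS1, HNRNPA2B1, CRIM1, GNA12 and ACTB, and ATTAAA in that of SRSF1. EIF2S3 has neither hexamer in its last 40 bases, and its region rose. Of the hosts with a hexamer, RPL14, CENPT and NUCKS1 have regions that rose. HNRNPA2B1, CRIM1, SRSF1 and GNA12 have regions that fell. A link between hexamer and direction was not tested.

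The selected regions were low in RNA and their hosts high. The mean of a weak region ran from 21.8 to 1209 normalized counts with a median of 107, and the mean of its host from 136 to 73089 with a median of 1350. The median ratio was 0.0992. Strong regions had a median of 537 normalized counts past hosts with a median of 152. These levels follow from the selection and are given as a description. The regions just inside the ratio of 0.25 were POLR1A (0.249), EXT1 (0.249) and AURKA (0.248), and those just outside were CDC42 (0.251), TELO2 (0.251) and MBD3 (0.254). None of the 3 just inside passed the test, and of the 3 just outside, MBD3 rose by 0.81 on the log2 scale.

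**Figure D1:**
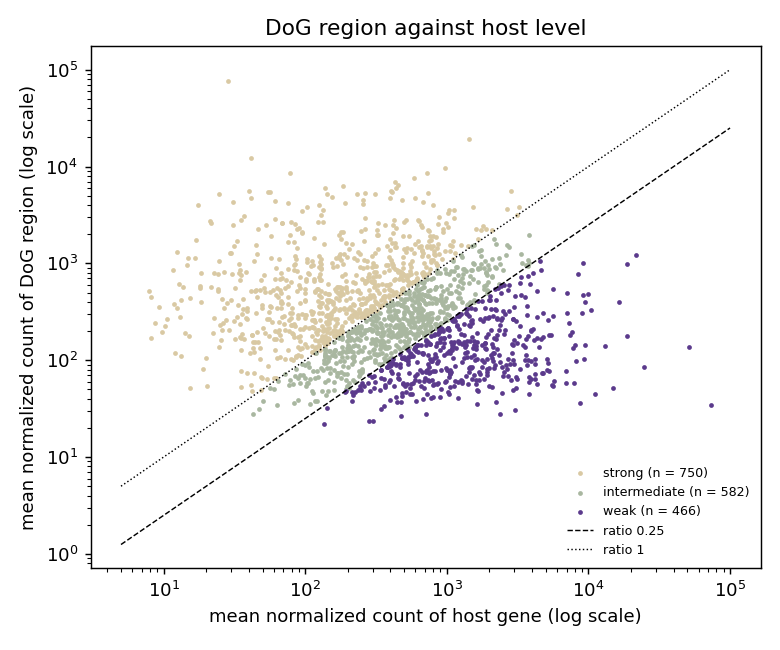
Mean normalized count of each DoG region (vertical, log scale) against that of its host gene (horizontal, log scale) for the 1798 regions matched by name, 1 point per region. Purple points are the 466 weak regions, which lie below the dashed line of ratio 0.25 and reach a host mean of 73089.

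The 4 smallest ratios belonged to the regions past ACTB, EEF1A1, APLP2 and ACTG1. Past ACTB, the gene of beta-actin, the region had a mean of 34.6 normalized counts against 73089 for the gene, which is 0.0474%. EEF1A1, the translation elongation factor that delivers aminoacyl-tRNA to the ribosome, had 138 past a host of 50988. APLP2, a membrane protein related to the amyloid precursor, had 52.0 against 15005, and ACTG1, gamma-actin, had 85.9 against 24742. Per kilobase of the spliced transcript that ends furthest downstream, the hosts stood at 38048 for ACTB, 12303 for ACTG1, 11481 for EEF1A1 and 4026 for APLP2. These values depend on the transcript chosen. In the authors' deposited tables none of these 4 regions passed the test: log2 fold changes were 0.00 for ACTB (SE 0.21), 0.23 for EEF1A1 (SE 0.20), 0.04 for ACTG1 (SE 0.16) and 0.04 for APLP2 (SE 0.20). The ACTB and ACTG1 genes themselves fell, by 0.53 and 0.36 in log2 (adjusted p = 0.00426 and 0.00723). HSP90AB1, a cytosolic HSP90 chaperone, had the fourth highest host mean (21820), and its region fell by 0.28 (SE 0.09, adjusted p = 0.00428) while the gene had 0.07 (adjusted p = 0.700), and the difference of -0.36 did not pass (adjusted p = 0.189). SLC35B2, a gene on the opposite strand that ends 208 bases past HSP90AB1, fell by 0.21 (adjusted p = 0.0449). Actin, ribosomal protein and elongation factor genes have processed copies elsewhere in the genome, and how reads with several matches were counted is not given in the sources used here.

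On knockdown, more weak regions rose than fell, most clearly among those of low mean, where other matched regions also rose more often than they fell. By the authors' deposited table and its adjusted p, with 0.05 as the threshold, 66 of the 466 weak regions rose (14.2%, exact binomial 95% interval 11.1 to 17.7) and 32 fell (6.87%, 4.74 to 9.56). Over all 2014 regions, 12.7% rose and 16.1% fell. The share that rose was thus near that of all regions, and the share that fell was below it. With a Wald test on the deposited log2 fold change over its SE in place of the deposited p, 31 weak regions rose and 17 fell, beside 141 and 225 of all regions. The deposited changes are smaller than their p-values imply in all 2014 regions, so this test can only remove calls. A call lost under it marks a stricter cut and no independent check. The log2 fold change was above 0 in 289 weak regions (62.0%, 57.4 to 66.4) against 48.4% of all regions. The median log2 fold change was 0.05, against -0.01 over all regions, -0.01 over intermediate and -0.07 over strong regions. Single regions ran from -1.11 to 1.90, with quartiles of -0.09 and 0.20. The intervals treat regions as independent and cover counting error only, and the difference between classes was not tested.

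Along the classes the lowered share climbed with the ratio. It was 6.87% of weak, 15.8% of intermediate and 21.6% of strong regions, whereas 14.2%, 15.5% and 8.67% rose. Within the weak class the smallest ratios gave the fewest falls: 1 of 37 regions fell and 3 rose at a ratio under 0.02, and 9 of 94 fell and 12 rose at a ratio from 0.2 to under 0.25. Region abundance moved with the class. Among regions with a mean of 50 to under 100 normalized counts, 3 of 163 weak and 10 of 85 other matched regions fell, and 23 and 14 rose. From 100 to under 200, 12 of 150 weak (8.0%) and 34 of 263 other regions (12.9%) fell, and 22 and 39 rose. From 200 to under 500, 12 of 85 weak (14.1%) and 84 of 463 other regions (18.1%) fell, and 12 and 62 rose. Under 50, 1 of 48 weak and 0 of 17 other regions fell, and 8 and 4 rose. At 500 or more, 4 of 20 weak regions (20.0%) and 126 of 504 others (25%) fell, and 1 and 36 rose. Rises thus outnumbered falls among weak regions at a mean under 200 and did not from 200 upward. The same held for the other matched regions. Under 50, 66.7% of weak and 94.1% of other regions had a log2 fold change above 0. How regions entered the deposited list is not known. A region of low mean may have entered it only through the group where it was high, which was not tested. From 50 upward a smaller share of weak regions than of others fell at each level, and the gap was largest among regions of low mean; the part of abundance in the difference was not tested.

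**Figure D2:**
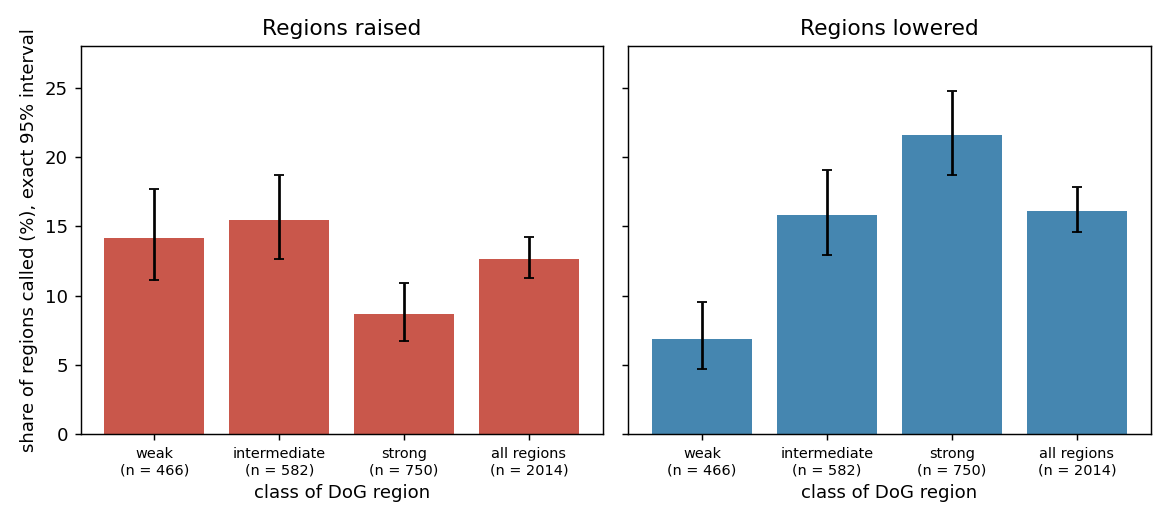
Share of regions raised (left, red) and lowered (right, blue) on UBE3D knockdown in each class, in percent with exact binomial 95% intervals, from the authors' deposited adjusted p under 0.05. The lowered share is 6.87% in weak regions and 21.6% in strong regions.

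The hosts of weak regions moved the other way in number. Of the 466 host genes, 29 rose (6.22%) and 55 fell (11.8%), against 4.62% and 7.93% of all 20115 genes in the authors' deposited table. Among the hosts of all 1798 matched regions, 8.01% rose and 8.12% fell, so weak hosts had a smaller raised and a larger lowered share than those. By the selection weak hosts are also more abundant, with a median of 1350 normalized counts against 411. At a ratio under 0.02, where the host median was 5520, 8 of 37 hosts fell and 0 rose. From 0.2 to under 0.25, with a host median of 681, 9 of 94 fell and 6 rose. The part of host abundance in these shares was not tested. The host median was -0.01. Region and host changed together in part: 16 regions rose with a host that rose, 9 fell with a host that fell, 3 rose past a host that fell, and none fell past a host that rose. Most called regions had a host that did not pass, 47 of the 66 raised and 23 of the 32 lowered. Conversely, 43 hosts fell and 13 rose with no call on the region. Across the 466 regions the log2 fold changes of region and host had a Pearson r of 0.45, a Spearman rank correlation of 0.38 and the same sign in 294. Regions and hosts share the libraries, so this is a description only.

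**Figure D3:**
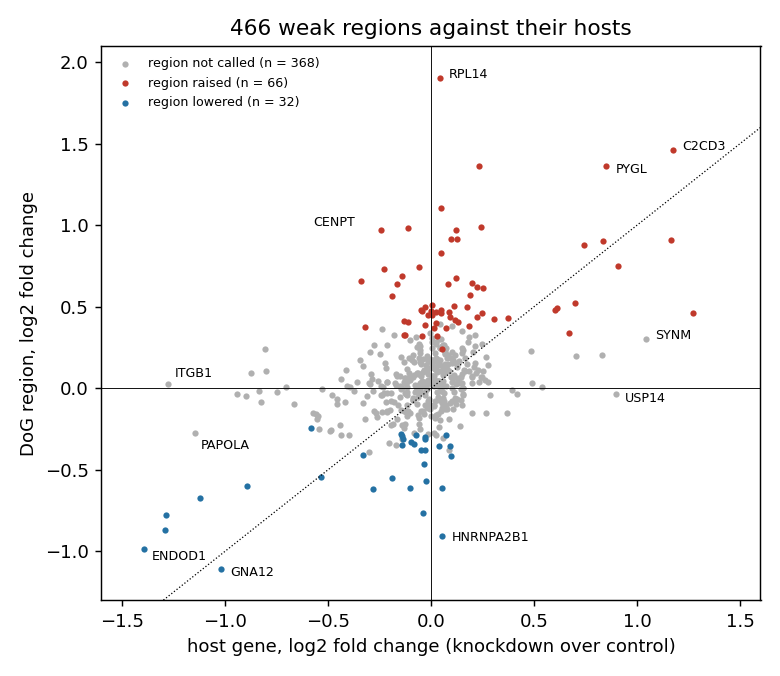
Log2 fold change of each of the 466 weak regions (vertical) against that of its host gene (horizontal), knockdown over control, from the authors' deposited tables. Red points are the 66 raised and blue points the 32 lowered regions, the dotted line marks equal change, and RPL14 stands at 1.90 for the region and 0.04 for the host.

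The change of the region was set against that of its host by their difference over its standard error, the square root of the sum of both squared errors. After Benjamini-Hochberg adjustment over the 1798 matched regions, 30 weak regions (6.44%) changed by more than their host in the upward direction and 7 (1.5%) in the downward direction, against 4.06% and 4.62% of all matched regions. The median difference was 0.09 on the log2 scale. Of the 30 upward differences, 13 were regions that rose past a host that did not pass, 3 were regions that rose past a host that fell, and 14 were regions without a call past a host that fell. The test is approximate, since region and host come from the same libraries and their covariance is unknown. Deposited fold changes are shrunken. The median ratio of the deposited value to the one its p-value implies was 0.768 for weak regions and 0.786 for their hosts. These are medians over the class. Within a single pair, region and host may be shrunken to unlike degrees, and the part of this in the differences was not tested.

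The largest rise was past RPL14, a protein of the large ribosomal subunit. The region, with a mean of 352 normalized counts, rose 3.74-fold, a log2 fold change of 1.90 (adjusted p = 2.50e-46, SE 0.13), in the authors' deposited table. The RPL14 gene, with a mean of 2983, stood at a log2 fold change of 0.04 (adjusted p = 0.842, SE 0.15). The difference of 1.86 (SE 0.20) had an adjusted p of 1.67e-17. RPL14 lies on the plus strand at chr3:40457292-40468587 and its last bases hold AATAAA. This is the end of the transcript that ends furthest downstream, with 7072 spliced bases in 6 exons. Shorter transcripts may end earlier, and where the region begins is not given, so the end it follows is not known. The next expressed gene on that strand, ZNF619, starts 8526 bases further on and stood at 0.01 (adjusted p = 0.969).

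Of the other large rises, most also came past hosts that did not pass the test. RPS27, a small-subunit ribosomal protein, had a region of 51.2 normalized counts that rose by 1.37 (SE 0.26), with 0.23 for the gene (SE 0.15). NUP210L, on the opposite strand with its end 530 bases away, rose by 0.62 (adjusted p = 0.0311). SLC25A6, an ADP/ATP carrier of the inner mitochondrial membrane, had a region that rose by 1.11 (SE 0.28) and a gene at 0.05. Past CDK1, the kinase that drives entry into mitosis, the region of 345 normalized counts rose by 0.99 (SE 0.13) and the gene had 0.24 (SE 0.15). EIF2S3, a subunit of the initiation factor that brings the initiator tRNA to the ribosome, had a rise of 0.99 (SE 0.23) past a gene at -0.11. In these 4, the region exceeded its host with adjusted p of 0.00380 (RPS27), 0.0121 (SLC25A6), 0.00502 (CDK1) and 0.000829 (EIF2S3). PYGL, liver-type glycogen phosphorylase, differed: its region rose by 1.36 (SE 0.24) and its gene by 0.85 (SE 0.15), and the difference of 0.51 did not pass (adjusted p = 0.335). C2CD3, a centriole protein, was named after its values were seen, since its region mean of 44.7 is under the minimum of 50 for naming: region and gene rose by 1.46 and 1.17.

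In CENPT and NUCKS1 the region rose while the gene fell. CENPT encodes a kinetochore protein that binds centromeric chromatin. Its region, with a mean of 145 normalized counts, rose by 0.97 (SE 0.19), and the gene fell by 0.24 (SE 0.09, adjusted p = 0.0186). The difference was 1.21 (SE 0.21, adjusted p = 9.83e-07). TSNAXIP1, on the opposite strand and overlapping the end of CENPT, rose by 0.92 (adjusted p = 0.00158). NUCKS1, a chromatin-associated nuclear protein, had a region that rose by 0.66 (SE 0.18) and a gene that fell by 0.34 (SE 0.13), a difference of 1.00 (SE 0.22, adjusted p = 0.000413), with no expressed gene on either strand within 10 kb past its end. NUMB, an inhibitor of Notch signalling, is the remaining host of this kind and was named after its values were seen: its region rose by 0.37, a call lost under the Wald test, and the gene fell by 0.32. ITGB1, the beta-1 integrin chain, reached a difference of 1.30 (SE 0.24, adjusted p = 6.10e-06) in another way, with 0.02 for the region (SE 0.12) and a gene that fell by 1.28 (SE 0.21).

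The 6 largest falls with a mean of at least 50 fell into hosts that fell too and hosts that did not. GNA12, a G protein alpha subunit, had the largest fall of the region, by 1.11 (SE 0.14, adjusted p = 3.32e-15), and the gene fell by 1.02 (SE 0.11). AMZ1, an opposite-strand gene that overlaps its end, had 0.08 (adjusted p = 0.707). Region and gene fell by 0.99 and 1.39 for ENDOD1, by 0.87 and 1.29 for EMP1, an epithelial membrane protein, and by 0.78 and 1.29 for ERRFI1, an inhibitor of the EGF receptor. The difference between region and host passed in none of these 4, with adjusted p of 0.878 (GNA12), 0.480 (ENDOD1), 0.374 (EMP1) and 0.218 (ERRFI1). ARHGAP29 had a region that fell by 0.76 (SE 0.24) and a gene at -0.04, and the difference missed the threshold (adjusted p = 0.0590).

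HNRNPA2B1, an RNA-binding protein of the hnRNP family, had the clearest fall against its own gene. The region, with a mean of 999 normalized counts, fell by 0.90 (SE 0.13, adjusted p = 1.58e-11) in the authors' deposited table, and the gene, with a mean of 9080, had 0.06 (SE 0.14). The difference was -0.96 (SE 0.19, adjusted p = 5.77e-05). NFE2L3, an opposite-strand gene whose end overlaps that of HNRNPA2B1, fell by 0.80 (adjusted p = 9.25e-10). CRIM1, a membrane protein that binds bone morphogenetic proteins, was alike: the region fell by 0.61 (SE 0.14), the gene had 0.05, and the overlapping opposite-strand gene FEZ2 fell by 0.58 (adjusted p = 0.000119). In both loci the gene across from the host fell as the region did, and the host did not pass. USP14, a proteasome-bound deubiquitinase, and SYNM, an intermediate filament protein, had hosts that rose by 0.90 and 1.04 and regions at -0.04 (SE 0.17) and 0.30 (SE 0.18), differences with adjusted p of 0.00140 and 0.0121. Here the opposite-strand gene did not fall: THOC1, across from USP14, had 0.01 (adjusted p = 0.969), and TTC23, across from SYNM, rose by 0.42 (adjusted p = 0.00966). Of the 7 regions lower than their host, 5 had an expressed opposite-strand gene within 10 kb past the host's end, which 140 of all 466 weak hosts had (30%). The libraries are stranded but the strand setting of the counting is among the settings not given in the sources used here. RNA of the region and of an opposite-strand gene cannot be told apart.

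**Figure D4:**
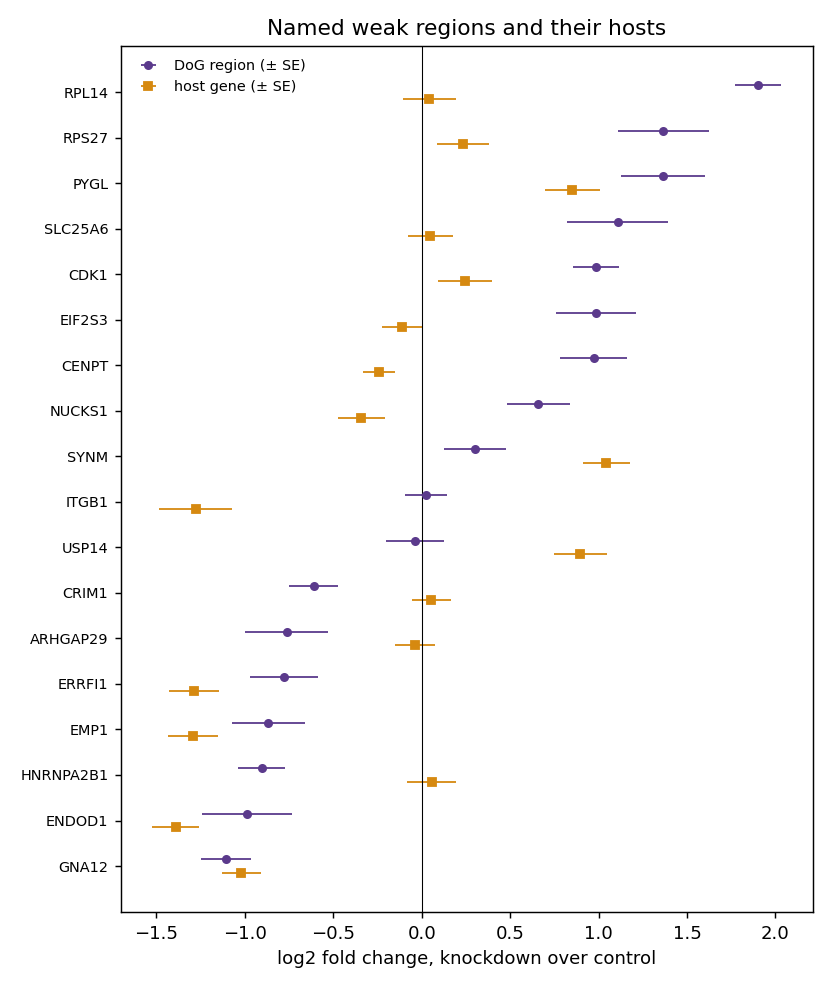
Log2 fold change with its SE of 18 named weak regions (purple circles) and of their host genes (orange squares), knockdown over control, from the authors' deposited tables. RPL14, CENPT and NUCKS1 have regions far right of their hosts, HNRNPA2B1 has its region left of the host, and region and gene lie together in GNA12.

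Regions were also counted in 15 functional gene lists. Of all matched regions 25.9% were weak, and a list of abundant genes has more of them by the way the class was selected. Of 16 matched regions past ribosomal protein genes, 14 were weak, and of 14 past translation factor genes, 10. In the ribosomal list, 2 of 14 weak regions rose (RPL14 and RPS27) and none fell, with a median of 0.17, and no host passed. In the translation factors, 4 of 10 rose (EIF2S3, EIF3F, EIF4E2 and EIF1) and none fell, with a median of 0.19 and 1 host raised. EIF4E2 and EIF1 lost their call under the Wald test. EIF3F, a subunit of the initiation factor eIF3, had 0.64 (SE 0.18) for the region and 0.08 for the gene. Over all regions the median was -0.01, with 12.7% raised and 16.1% lowered.

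Splicing factors and hnRNPs had 18 weak of 26 matched regions. In this list 4 regions fell, past HNRNPA2B1, SRSF1, SF3B1 and HNRNPH1, and 2 rose, past SRSF5 and HNRNPC, and none of the 18 host genes passed. The list median was 0.00, and over all regions 16.1% fell. Under the Wald test HNRNPH1, SRSF5 and HNRNPC lost their call. SRSF1, a serine- and arginine-rich splicing regulator, had a region of 1056 normalized counts that fell by 0.61 (SE 0.11, adjusted p = 3.45e-08) and a gene at -0.10 (SE 0.11), with a difference of -0.51 (SE 0.16, adjusted p = 0.0156) and no expressed gene within 10 kb on either strand. The cytoskeleton list had 13 weak of 16 matched regions, of which 1 fell (MYL6, a myosin light chain, by 0.31) and none rose. Of their hosts 3 fell and 1 rose, beside 11.8% and 6.22% of all weak hosts. Among chaperones, HSP90AB1 was the 1 call of 4 weak regions.

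Of the adhesion and matrix hosts, all 3 with weak regions fell, ITGB1, ITGA3 (by 0.56) and CD63 (by 0.42), and their regions had 0.02, -0.16 and -0.09, none of which passed. Falls were frequent in the whole list: 39 of its 141 genes fell and 4 rose, beside 7.93% and 4.62% of all genes. The difference between region and host passed for ITGB1 and not for ITGA3 (adjusted p = 0.295) or CD63 (adjusted p = 0.435). In glycolysis all 4 matched regions were weak, of which 1 rose and none fell. Of the 4 hosts 2 fell and none rose, and in the whole list 9 of 21 genes fell and none rose. The region past PFKL, liver-type phosphofructokinase, rose by 0.41 (SE 0.15) past a gene at -0.13, a difference that passed (adjusted p = 0.0269). The region past ALDOA, fructose-bisphosphate aldolase, had 0.11 while the gene fell by 0.41, a difference that did not pass (adjusted p = 0.139). C21orf2, which ends 1568 bases from PFKL on the opposite strand, rose by 0.53 (adjusted p = 0.00697). The proteasome list had 1 rise (PSMD5) in 3 weak regions, vesicle trafficking 2 (SNX19 and VPS35) in 7, and chromatin and histones 2 (HIST1H1C and SMARCE1) in 4, with no falls, beside 12.7% raised over all regions. Of these 5 calls only that of SNX19 held under the Wald test. Oxidative phosphorylation with 4 weak regions, ubiquitin enzymes with 14 and lysosome with 1 had no call in either direction.

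Zinc finger genes, many of them transcriptional repressors, had 14 weak of 85 matched regions. Of the 14, 5 rose (ZNF702P, ZNF718, ZNF780B, ZNF714 and ZNF445) and none fell, and 6 of their hosts rose and 1 fell, beside 12.7% of all regions and 4.62% of all genes raised. Rises were frequent in the whole list and not only in weak hosts: 115 of its 538 genes rose and 9 fell. Under the Wald test only ZNF702P of the 5 regions kept its call. ZNF702P, a pseudogene of the family, had 0.88 for the region and 0.74 for the gene. In ZNF714 the host exceeded the region, with 1.27 against 0.46 and an adjusted p of the difference of 0.0363. Members of this family have near-identical copies, so their values are uncertain where reads match several.

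The machinery of 3′ end formation had 8 matched regions, of which 3 were weak: PAPOLA, the canonical poly(A) polymerase, FIP1L1, which tethers that polymerase to the cleavage complex, and WDR33, which binds the poly(A) signal. None of the 3 regions passed, with log2 fold changes of -0.27 (SE 0.20), 0.22 (SE 0.15) and -0.15 (SE 0.16) in the authors' deposited table. The PAPOLA gene fell by 1.15 (SE 0.14), and its difference from the region was 0.87 (SE 0.24, adjusted p = 0.00666). The FIP1L1 and WDR33 genes had 0.15 and 0.20 and did not pass. Of the 52 genes of the list, 2 rose (PCF11 by 0.52 and RBBP6 by 0.39) and 4 fell (PAPOLA, INTS3 by 0.34, RPRD1B by 0.25 and INTS2 by 0.25), which is near the 4.62% and 7.93% of all genes. PCF11 is a termination factor that binds the polymerase tail, RBBP6 a ubiquitin ligase of the cleavage complex, and INTS2 and INTS3 subunits of Integrator.

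What lies past the host varied with the class. An expressed gene on the opposite strand, averaging 50 normalized counts or more, stood within 10 kb past the annotated end of 140 weak hosts (30%), 262 intermediate (45.6%) and 508 strong hosts (70.3%) with coordinates. A gene on the same strand started within 10 kb in 11.6%, 10.3% and 9.96%. Among the 140 weak regions with an opposite-strand gene, 14 rose and 18 fell. Among the 326 without one, 52 rose (16.0%) and 14 fell (4.29%), and 64.4% (59.0 to 69.6) had a log2 fold change above 0, against 56.4% with such a gene. Intermediate regions shared this lean. Without an opposite-strand gene, 68 of 313 rose (21.7%) and 44 fell, and 58.8% had a log2 fold change above 0. With such a gene, 22 of 262 intermediate regions rose and 46 fell. Strong regions without an opposite-strand gene rose in 42 and fell in 36 of 215, and those with one rose in 20 and fell in 122 of 508. Of the 32 lowered weak regions, 18 faced an opposite-strand gene, and in 4 of these that gene fell too. Of the 66 raised, 14 did, and in 5 that gene rose too. Of the 54 weak regions with a same-strand gene, 10 rose (18.5%) and 1 fell (1.85%), against 12.7% and 16.1% of all regions. The same-strand gene rose too in 2 of the 10 and fell too in the 1. Of the regions with such a gene, 7 of 59 intermediate rose and 9 fell, and 3 of 72 strong rose and 14 fell. The part of these neighbours in the calls was not tested.

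**Figure D5:**
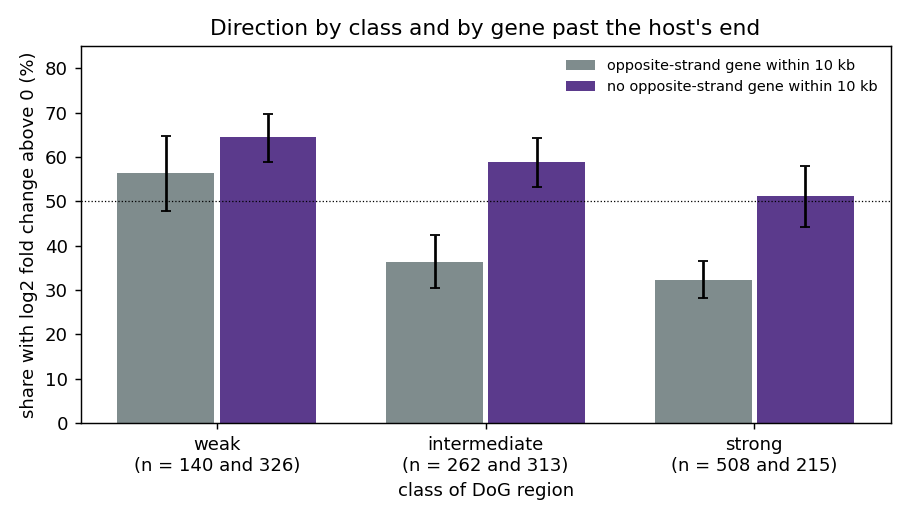
Share of regions with a log2 fold change above 0 (percent, exact binomial 95% intervals) by class, with (grey) and without (purple) an expressed opposite-strand gene within 10 kb past the host's end. Weak regions stand at 56.4% and 64.4%, intermediate regions at 36.3% and 58.8%, strong regions at 32.3% and 51.2%, and the dotted line marks 50%.

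The hosts of weak regions were nearly all protein coding, 464 of 466 (99.6%) against 89.3% of strong hosts with coordinates. Their transcripts had a median spliced length of 3822 bases and 10 exons, against 2429 bases and 7 exons for strong hosts. AATAAA stood in the last 40 bases of 59.0% of weak, 52.8% of intermediate and 47.8% of strong hosts, and in 61.5% of all genes averaging 100 normalized counts or more. ATTAAA without AATAAA stood in 16.3% of weak hosts and in 14.7% of those genes, and 24.7% and 23.8% had neither. The search was of the strand of the transcript only, and a hexamer there is a match and not a shown signal. On this measure weak hosts were near the expressed genes as a whole. By hexamer, 34 of 275 weak regions past AATAAA rose (12.4%) and 21 fell, 10 of 76 past ATTAAA rose and 6 fell, and 22 of 115 past neither rose (19.1%) and 5 fell, a difference that was not tested.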

How the data were processed

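Total RNA depleted of ribosomal RNA was sequenced from 3 control and 3 UBE3D knockdown libraries. Per the submitters' processing notes, tools were cutadapt 1.8.1, STAR 2.5.2b and DESeq2 with hg38 (GRCh38); how DoG regions were called and counted is not given in the sources used here. In all, the authors deposited 1 comparison for 20115 genes and 1 for 2014 DoG regions, and per the file headers each row holds a mean normalized count (a signal without library totals), a log2 fold change with its SE, a p-value and its adjusted form. Within each table, the deposited adjusted p equals the Benjamini-Hochberg value over all its rows, and the deposited log2 fold changes are smaller than the deposited p-values imply, so they are shrunken.

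Regions were joined to hosts by name with pandas 2.3.3, and calls are the authors' DESeq2 adjusted p under 0.05. The difference of region and host used a normal test (scipy 1.17.1), run also on simulated data. There the errors of region and host were independent and the effects were not shrunken. The simulation therefore could not show what shared libraries or shrinkage do to this test. Neighbours, exons and transcript ends come from GENCODE 29; all 466 hosts had coordinates, 9 of them through a RefSeq synonym. Depth is unknown, so no counting floor is given.

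The members, the gene lists and the tests were chosen with earlier results of these data known. Named regions were the 6 largest rises and 6 largest falls with a mean of at least 50, the 4 smallest ratios, 3 regions on each side of the ratio of 0.25, the 4 largest differences from the host in each direction, the 4 hosts of highest mean, up to 2 regions per list with at least 3 weak members, and UBE3D, CPSF3 and the called genes of 3′ end processing. Others named in a count were named after their values were seen. Alternatives were another threshold, minimum means, other ratios, regions without near genes, and a Wald test on the deposited value over its SE, with and without centring.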

Additional observations from a re-analysis of the deposited data

How the results depend on the processing

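Of 68 recomputed values, 46 stayed within 1.5 times of a count, within the median SE of a region or within the binomial interval of a share. Among these 46, the weak median, 0.046, was 0.030 at a region mean of at least 100 and 0.030 at a host mean of at least 1000. It stayed positive in each alternative. Its bound, the median SE of 0.171, is wider than the median itself, so this check could hardly fail. The count of weak regions raised, 66, was 36 at an adjusted p under 0.01, 35 of the 255 regions with a mean of at least 100, 38 of the 291 with a host mean of at least 1000, and 31 under the Wald test, 31 also when centred. The count lowered, 32, was 19 at 0.01, 18 of the 313 regions with a ratio under 0.15, 14 of the 326 without an opposite-strand gene, 17 under the Wald test and 16 centred. Among the 255 regions with a mean of at least 100, 28 fell beside the 35 that rose, so rises outnumbered falls by less there. Hosts raised, 29, were 15 past regions with a mean of at least 100, 12 at a host mean of at least 1000, 15 at a ratio under 0.15 and 19 under the Wald test. Hosts lowered, 55, were 27 past regions with a mean of at least 100, 36 under the Wald test and 34 centred. Regions higher than their host, 30, were 18 at a mean of at least 100; regions lower, 7, were 3 at 0.01, 3 at a ratio under 0.15 and 2 without an opposite-strand gene. The subsets hold fewer regions, and the Wald test calls fewer over the whole table too (141 raised and 225 lowered of 2014). Without centring it can only remove calls, because the deposited changes are shrunken. Of the regions named as called, EIF1, EIF4E2, SRSF5, HNRNPC, HNRNPH1, HIST1H1C, PSMD5, SMARCE1, VPS35, NUMB, ZNF445, ZNF714, ZNF718 and ZNF780B lost their call under the Wald test. Searched in the principal transcript, an alternative chosen after seeing the data, AATAAA stood in 53.3% of strong hosts in place of 47.8%.

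No paired analysis was possible because the tables hold no values by library, and for the same reason leaving out each replicate in turn was not run. Neither depth, region length nor counting strand is known, which limits the ratio, the levels and every region near an opposite-strand gene.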
